A study of Drosophila melanogaster with 6 samples.

Results

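The ecdysone receptor cascade is the series of transcription factors through which a pulse of the steroid hormone ecdysone is turned into gene expression in insects. This account covers 10 of its genes in Drosophila melanogaster, taken by symbol from a table of 17562 genes: the receptor pair EcR and usp, the early genes br, Eip74EF and Eip75B, the early-late genes Eip78C, Hr3, Hr4 and Hr39, and the mid-prepupal gene ftz-f1. All 10 were found in the table. RNA-seq libraries were made from whole larvae of the last instar at the wandering stage, the hours in which larvae leave the food before pupariation. The control strain was w1118 (3 libraries), and the mutant was homozygous for cdk8K185 (3 libraries), a null allele of the Mediator kinase gene Cdk8 that also removes part of the neighbouring gene I-2. Each library came from 10 larvae, and the labels give no sex. A paper on the same genotypes and stage, whose data statement names another series, describes the mutant line. By its methods the line carries the FRT80B site and was outcrossed to w1118. Homozygotes of cdk8K185 reach the pupal stage on CDK8 supplied by the mother. Nothing in the labels says whether the pools came from separate cultures, so p-values measure the spread between these pools.

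In the fly, ecdysone acts through a heterodimer of the nuclear receptors EcR and Ultraspiracle, the product of usp. The bound receptor switches on a small group of early genes, which encode transcription factors and are visible as puffs in salivary gland chromosomes. Early-late genes respond to both the hormone and the early proteins, and most encode nuclear receptors themselves. When the hormone falls again in the prepupa, ftz-f1 is transcribed, and its product makes tissues competent for the next pulse. High ecdysone keeps ftz-f1 off, so it is normally low while the early genes are high.

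The libraries held 9208564 to 11724703 counts. Levels are given as CPM, the counts per 1e6 counts of the TMM-scaled library size. A count of 0 allows up to 3 counts, a floor that covers counting error only. It is worth 0.256 to 0.326 counts per 1e6 counts of the library totals without TMM scaling. Markers of 8 larval tissues were detected, from glue and fat body genes to those of muscle and ring gland. Cdk8 was lower in the mutant libraries (4.73, 6.45 and 7.22 CPM) than in the w1118 libraries (10.1, 9.51 and 8.82 CPM), the direction of the genotype labels. This call was lost in 8 of 14 refits that each changed 1 processing choice or left out 1 library. I-2 was lower too (31.4 ± 3.82 against 5.38 ± 0.211 CPM, SD, n = 3). By the fit, Cdk8 was still at 64.6% of w1118 and I-2 at 17.1%. The source of the Cdk8 counts left in a null mutant was not tested, so Cdk8 alone does not settle the genotype. In bulk samples, fewer cells of a type and less RNA per cell cannot be told apart, and this holds for every level given here.

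Of the 10 genes, 9 passed the filter on low counts, and Hr3 did not. By edgeR at an adjusted p under 0.05, 7 of the tested genes were lower in cdk8K185, 1 was higher and 1 was not called. Over all 10632 genes tested, 36.9% were called, 17% as lower and 19.9% as higher. DESeq2 and limma-voom also called 7 members lower and 1 higher, where over all genes DESeq2 called 20.1% lower and 16.9% higher, and limma-voom 15.8% and 19.6%. The median log2 fold change, given throughout as cdk8K185 over w1118, was -1.26 for the 9 cascade genes and 0.02 for all genes tested. For 9 of the 9 tested cascade genes the ranges of the genotypes were apart, against 53.6% of all genes tested. The fall was 1.62-fold for EcR and between 2.4-fold and 2.92-fold for the early genes. Among the early-late genes it ran from 1.61-fold for Hr39 to 12.7-fold for Eip78C and 27.9-fold for Hr4.

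**Figure D1:**
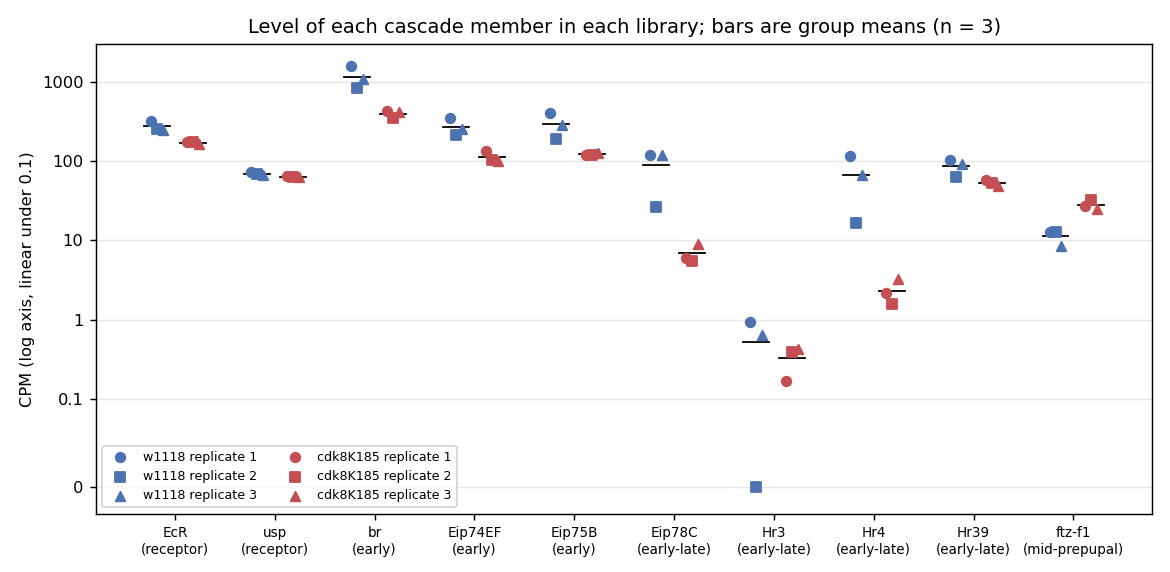
CPM on a log axis (linear under 0.1) for each cascade gene in each of the 6 libraries, with w1118 in blue, cdk8K185 in red, a symbol for each replicate number and a bar at each group mean. Hr4 and Eip78C drop furthest, from w1118 means of 66.1 and 88.6 CPM to 2.34 and 6.92 CPM, while ftz-f1 moves the other way, from 11.4 to 28.3 CPM.

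EcR (FBgn0000546, 2R:6087873-6169087, minus strand) encodes the hormone-binding partner of the receptor. In w1118 replicates 1 to 3 it was at 324, 253 and 247 CPM, against 172, 173 and 163 CPM in cdk8K185 replicates 1 to 3, the order used from here on. All mutant libraries lay under the lowest w1118 library, and they lay close together. The w1118 mean was 275 ± 42.6 CPM and the mutant mean 170 ± 5.46 CPM (SD, n = 3), with a log2 fold change of -0.70 (SE 0.13, edgeR adjusted p 0.00562). The partner gene usp (FBgn0003964, X:2038798-2042311, minus strand), the fly member of the RXR family, was not called. Its w1118 levels were 72.7, 69.7 and 66.4 CPM, and its cdk8K185 levels 65.0, 63.0 and 62.4 CPM. These ranges did not overlap, but they came close to each other (log2 fold change -0.13, SE 0.08, edgeR adjusted p 0.219). Its sign turned to 0.08 when library totals alone were used for scaling, a change that raised the median of all genes by 0.22. In the annotation usp shares 265 exon bases with Actn on the same strand and 196 with CG4313 on the opposite strand.

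Because both partners of the receptor are counted in the same library, their ratio needs no scaling between libraries. Per kb of exon, EcR was 1.36, 1.11 and 1.14 times usp in w1118, and 0.81, 0.842 and 0.801 times usp in cdk8K185. By this measure EcR stood above usp in each w1118 library and under it in each mutant library. By counts alone EcR was above usp in all 6 libraries (2039, 1774 and 1902 against 770, 644 and 726 counts in cdk8K185). Which of the pair is more abundant therefore depends on the exon lengths used, whereas the change in their ratio does not. The mean log2 ratio differed by -0.55 between the genotypes, given here as a description without a test.

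The early gene br (FBgn0283451, X:1575132-1664869, plus strand) encodes the Broad zinc finger proteins, which are needed for entry into metamorphosis. It was the most abundant of the 10 per kb in every w1118 library. The w1118 replicates gave 1588, 830 and 1076 CPM, whereas the cdk8K185 replicates gave 425, 350 and 421 CPM. The lowest w1118 library, replicate 2, stood well above the highest mutant library. The decrease was 2.92-fold (log2 fold change -1.55, SE 0.24, edgeR adjusted p 0.003). In the annotation br overlaps Mur2B on the opposite strand over 189 exon bases.

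Eip74EF (FBgn0000567, 3L:17558672-17619325, minus strand) encodes the ETS-domain factor E74. The w1118 replicates were at 345, 211 and 253 CPM, the cdk8K185 replicates at 134, 102 and 99.3 CPM. The groups did not overlap, and w1118 replicate 1 was again highest. The log2 fold change was -1.27 (SE 0.21, edgeR adjusted p 0.0037). Eip75B (FBgn0000568, 3L:17950953-18064696, minus strand) encodes the haem-binding nuclear receptor E75, which can hold back the activity of the Hr3 protein. It gave 406, 188 and 282 CPM in w1118 against 119, 120 and 127 CPM in cdk8K185. Its w1118 libraries differed 2.16-fold among themselves, while the mutant libraries differed 1.06-fold. The log2 fold change was -1.26 (SE 0.26, edgeR adjusted p 0.0103). Both genes fell by nearly the same factor, and within libraries the ratio of Eip74EF to Eip75B per kb ran from 1.22 to 1.62 in w1118 and from 1.13 to 1.62 in cdk8K185, with overlapping ranges.

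Among the early-late genes, Hr4 (FBgn0264562, X:1941940-2007956, plus strand) fell the most. Its product is a nuclear receptor of the GCNF family that represses early genes in the prepupa and acts in the prothoracic gland on the timing of maturation. It had 1225, 166 and 616 counts in w1118 replicates 1 to 3 and 26, 16 and 38 counts in the cdk8K185 replicates. As levels, these were 116, 16.4 and 66.3 CPM against 2.19, 1.56 and 3.26 CPM. Every mutant library was under the lowest w1118 library by a wide margin, although the w1118 libraries themselves spanned 7.03-fold. The log2 fold change was -4.80 (SE 0.80, edgeR adjusted p 0.00505), and 0.367% of all genes tested had a lower value. Without w1118 replicate 1, the highest library, it was -4.12 (edgeR adjusted p 0.00965), and without w1118 replicate 2, the lowest, it was -5.26 (edgeR adjusted p 0.000448), or 17.4-fold and 38.3-fold lower.

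Eip78C (FBgn0004865, 3L:21226609-21266503, plus strand) encodes E78, a nuclear receptor related to E75. It had 1278, 265 and 1105 counts in w1118 and 72, 57 and 106 counts in cdk8K185. The levels were 121, 26.3 and 119 CPM against 6.08, 5.57 and 9.11 CPM, so that w1118 replicate 2 was again the low control library and the groups did not overlap. The log2 fold change was -3.67 (SE 0.62, edgeR adjusted p 0.00542). It was -4.11 without w1118 replicate 2 and -3.38 without w1118 replicate 1. The ratio of Eip78C to Hr4 per kb was 2.47 to 4.24 in w1118 and 6.55 to 8.42 in cdk8K185, so Hr4 stood lower relative to Eip78C in each mutant library.

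Hr39 (FBgn0261239, 2L:21237250-21259675, plus strand), which encodes a nuclear receptor of the same subfamily as FTZ-F1, changed least of the early-late genes that were tested. The w1118 levels were 103, 64.0 and 91.8 CPM, and those of cdk8K185 were 58.3, 53.7 and 48.6 CPM. The lowest w1118 library, replicate 2, was only a little above the highest mutant library. The log2 fold change was -0.69 (SE 0.18, edgeR adjusted p 0.0225). This call was not firm. It was lost in 5 of the 6 refits that each left out a library, with edgeR adjusted p up to 0.0905, and held in the refit without w1118 replicate 2. With library totals as scaling it was lost too (log2 fold change -0.48, edgeR adjusted p 0.0572).

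Hr3 (FBgn0000448, 2R:10203995-10237348, minus strand) encodes the ROR-family receptor that activates ftz-f1. It had 10, 0 and 6 counts in w1118 and 2, 4 and 5 counts in cdk8K185, at or near the floor of 3 counts. The 0 counts of w1118 replicate 2 allow up to 3 counts. These counts can be far too low, because in the annotation 1810 of the 10465 exon bases of Hr3 are free of other genes. CG12912 shares 6466 of them and CG46321 shares 6071, both on the same strand, and both had 0 counts in every library. How reads over shared bases were counted is not given in the sources used here. When genes with any count at all were let into the fit, Hr3 could be tested and was not called (log2 fold change -0.65, SE 0.96, edgeR adjusted p 0.629). Neither its level nor its change can therefore be read from this table.

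The mid-prepupal gene ftz-f1 (FBgn0001078, 3L:18750607-18801309, minus strand) encodes the nuclear receptor that sets the competence of prepupal tissues. It was the sole member with a higher level in the mutant. It had 137, 128 and 80 counts in w1118 and 327, 329 and 291 counts in cdk8K185. The levels were 12.9, 12.7 and 8.61 CPM against 27.6, 32.2 and 25.0 CPM, and the lowest mutant library was well above the highest w1118 library. The rise was 2.47-fold (log2 fold change 1.30, SE 0.18, edgeR adjusted p 0.00175). It was 1.15 to 1.41 on the log2 scale when single libraries were left out. Of its 8581 exon bases, 2521 are shared with lncRNA:CR45939 on the same strand, which had at most 1 count in any library. Edg84A, which ftz-f1 is known to activate in the mid-prepupa, was at or under the floor in all 6 libraries. Another such target, Edg78E, averaged 0.945 ± 0.31 CPM in the controls and 2.34 ± 1.14 CPM in the mutants (SD, n = 3). It was not called (log2 fold change 1.31, edgeR adjusted p 0.0793). With 9, 7 and 12 counts in w1118, Edg78E passed the filter on low counts only through the mutant libraries (39, 11 and 31 counts). Its values are therefore a description and no support for a difference. Edg91, a further Edg gene of the effector list given below, was lower (log2 fold change -0.77, edgeR adjusted p 0.00441). It averaged 11.9 CPM in w1118 and 6.98 CPM in cdk8K185, and its call held in all 14 refits.

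**Figure D2:**
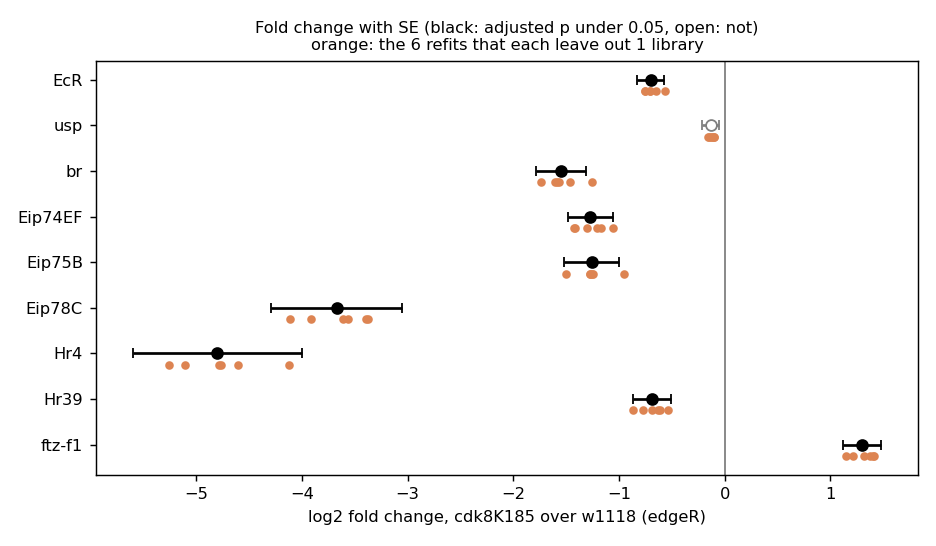
Log2 fold change of cdk8K185 over w1118 for the 9 genes tested, with bars for the SE from edgeR. Filled points had an adjusted p under 0.05, and orange points are the 6 refits that each left out 1 library, which run from -5.26 to -4.12 for Hr4 and from 1.15 to 1.41 for ftz-f1.

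The order of the cascade was then compared library by library, by counts per kb of exon. In w1118, br was at rank 1 in each of the 3 libraries, at 833, 415 and 495 counts per kb. Behind it came EcR, Eip74EF and usp in changing order. Eip75B was at rank 4 in replicate 1, ahead of usp, and at rank 5 in replicates 2 and 3. Hr39 and Eip78C held ranks 6 and 7, and Hr4 and ftz-f1 ranks 8 and 9. In cdk8K185 the receptor gene usp was at rank 1 in replicates 1 and 2 and at rank 2 in replicate 3, where br led. Per kb of exon free of other genes, usp was at rank 1 and br at rank 2 in all 3 mutant libraries. EcR was at rank 2 or 3 in each mutant library, and Eip74EF at rank 4. The lead of usp over br depends on the division by exon length. By counts without it, br was at rank 1 in all 6 libraries and usp at rank 5 in each mutant library. The exon length merges all annotated transcripts of a gene, 16 for br (20201 bases) and 2 for usp (3038 bases). Which transcripts were present cannot be told from counts per gene.

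The lower part of the order was the same in every mutant library. Hr39 was at rank 5, Eip75B at 6, ftz-f1 at 7, Eip78C at 8 and Hr4 at 9. By contrast, ftz-f1 was under Hr4 in w1118 replicates 1 and 3, under Eip78C in every w1118 library, and above Hr4 in w1118 replicate 2. The latter is the control library with the fewest Hr4 and Eip78C counts. Rank 10 belonged to Hr3 throughout, but its rank rests on counts that may leave out shared bases. Across the 10 genes, Spearman's rho between libraries was 0.927 to 0.976 within w1118, 0.964 to 0.988 within cdk8K185 and 0.782 to 0.964 between the genotypes. These are descriptions across genes, which are not independent replicates, and the libraries share the same gene lengths and base composition.

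**Figure D3:**
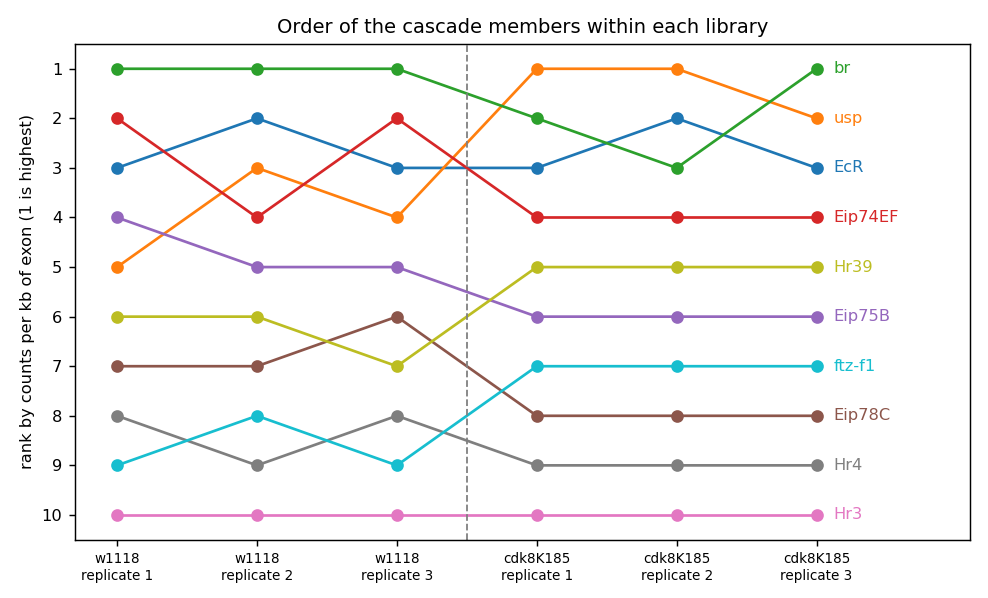
Rank of each of the 10 genes within each library by counts per kb of exon, with rank 1 at the top and a dashed line between the genotypes. In cdk8K185, br is under usp in replicates 1 and 2, and ftz-f1 passes above Eip78C and Hr4 in every replicate.

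The ratio of ftz-f1 to Hr4 summarized this crossing without any scaling between libraries. Per kb of exon it was 0.181, 1.25 and 0.21 in w1118 replicates 1 to 3, and 20.4, 33.3 and 12.4 in the cdk8K185 replicates. The lowest mutant value was far above the highest w1118 value, and the mean log2 ratio was higher by 5.81 in the mutant. Against Eip78C, ftz-f1 stood at 0.0496 to 0.331 in w1118 and at 1.88 to 3.95 in cdk8K185. Against Hr39, its relative in the nuclear receptor family, it stood at 0.0545 to 0.115 in w1118 and at 0.275 to 0.348 in cdk8K185. The genes were picked with their changes known, so these ratios have no test.

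Most cascade genes ranked the w1118 libraries in the same order. Replicate 1 was the highest w1118 library for 9 of the 9 tested members, against 31.4% of all genes tested. Replicate 2 was the lowest for 6 of them (br, Eip74EF, Eip75B, Eip78C, Hr4 and Hr39), against 26.8% of all genes tested. The ratio of the highest to the lowest w1118 library was 1.1 for usp, 1.31 for EcR, 1.5 for ftz-f1, 1.62 for Hr39 and 1.91 for br, and rose to 4.6 for Eip78C and 7.03 for Hr4. Larger w1118 ratios than that of Hr4 were found for 1.08% of the genes tested. In cdk8K185 the same ratio was 1.63 for Eip78C and 2.09 for Hr4. For 9 of the 9 tested members the w1118 libraries spread more than the mutant libraries, against 55.4% of all genes tested.

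The w1118 libraries also differed in tissue and sex markers, whose part in this spread was not tested. The summed muscle markers were 3079 CPM in w1118 replicate 1, and 7668 and 8778 CPM in replicates 2 and 3. The summed male-specific roX transcripts were 206 CPM in w1118 replicate 1, and 442 and 468 CPM in replicates 2 and 3. In cdk8K185 the roX sum ran from 260 to 978 CPM, which overlapped w1118. Since br, usp and Hr4 lie on the X chromosome, the members were refitted with lncRNA:roX1 added to the model, an alternative chosen after seeing the data. Each member kept its direction in that fit, with log2 fold changes of -1.32 for br, -4.14 for Hr4 and 1.27 for ftz-f1, and Hr39 was no longer called (edgeR adjusted p 0.0729).

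**Figure D4:**
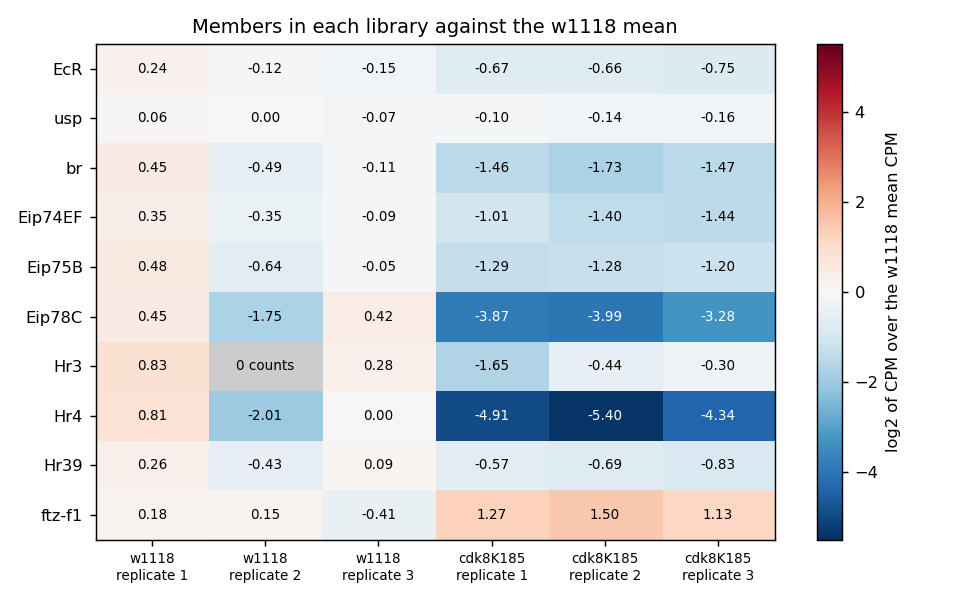
Log2 of the CPM of each gene over its w1118 mean CPM, for each library, with blue for lower and red for higher values and grey for 0 counts. Replicate 2 of w1118 is low for Hr4 (-2.01) and Eip78C (-1.75), but not as low as any cdk8K185 library, where Hr4 runs from -5.40 to -4.34 and Eip78C from -3.99 to -3.28.

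The 3 genes most like Hr4 over the 6 libraries, by Pearson's r of log2 CPM among 7724 genes whose log2 CPM averaged 3 or more, were Atg18b (r = 0.999), CG13722 (r = 0.997) and CG15097 (r = 0.996). CG13722 followed Hr4 in its low w1118 replicate 2 as well, at 536, 130 and 275 CPM in the controls against 23.7, 19.2 and 34.4 CPM in the mutants. Atg18b, a member of the autophagy gene family Atg18, moved over a much smaller range, from 98.0 to 130 CPM in the controls and from 68.2 to 77.7 CPM in the mutants. For ftz-f1 the nearest were CG30394 (r = 0.996), Fancd2 (r = 0.995), which encodes a DNA crosslink repair protein, and FBgn0037010 (r = 0.995). With 6 libraries in 2 genotypes such values are common, since 313 genes had an r over 0.95 with Hr4 and 273 with ftz-f1.

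The wider pathway was followed in lists of genes that, like the members, were chosen with earlier results of these data known. The first held coregulators, proteins reported to bind the EcR-usp dimer or to act at its targets. Of 11 tested, 2 were lower and 0 higher, with a median log2 fold change of -0.01, against 36.9% of all genes tested that were called. Utx, a histone H3 demethylase, averaged 69.6 ± 8.27 CPM in the controls and 46.2 ± 2.67 CPM in the mutants (SD, n = 3), with a log2 fold change of -0.59 (edgeR adjusted p 0.00596), and bon, which encodes the cofactor Bonus, had a log2 fold change of -0.32 (edgeR adjusted p 0.026), a call that was lost in 7 of 14 refits. The coactivator gene tai (log2 fold change -0.52, edgeR adjusted p 0.0735) and the corepressor gene Smr (-0.26, edgeR adjusted p 0.191) were not called. With library totals as scaling, the list gave 0 lower and 3 higher genes, so its direction depends on the scaling. Reads of bon may be mixed with those of CG15923 on the opposite strand, since the use of strand in counting is not given.

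Outside the 8 nuclear receptors among the members, 13 other nuclear receptor genes were listed and 10 were tested. Hr78 was lower, and Hr51, Hr96 and Hnf4 were higher, with a median log2 fold change of 0.02 over the list. These 4 of 10 called are near the 36.9% of all genes tested. Hr51, also known as unfulfilled and needed in mushroom body neurons, had 9, 5 and 6 counts in w1118 and 162, 136 and 312 counts in cdk8K185. The groups were far apart, but the gene passed the filter on low counts only through the mutant libraries, so its call is no support for a difference and the counts are given as a description. Hr78, whose w1118 mean was 92.2 ± 4.72 CPM, averaged 57.6 ± 5.87 CPM in the mutants (SD, n = 3) and fell by 0.68 on the log2 scale (edgeR adjusted p 0.0025). Hr96, which senses cholesterol, rose with a log2 fold change of 0.64 (edgeR adjusted p 0.00414), and Hnf4, which senses fatty acids, had one of 0.29 (edgeR adjusted p 0.0404). The call of Hnf4 was not firm and was lost in 11 of 14 refits, including each of those that left out a library.

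Of 8 other transcription factors tied to the cascade, 2 were lower, 2 were higher and 4 were not called, where 17% of all genes tested were lower and 19.9% higher. Blimp-1, an early-late gene whose product represses ftz-f1, gave 33.7, 9.81 and 16.6 CPM in the controls against 4.47, 5.28 and 5.24 CPM in the mutants. Its w1118 libraries were uneven in the same order as those of Hr4, and the groups did not overlap. The log2 fold change was -2.0 (SE 0.45, edgeR adjusted p 0.0151), and the call was lost without cdk8K185 replicate 1, without cdk8K185 replicate 3 and with the roX1 term (edgeR adjusted p up to 0.0633). The juvenile hormone receptor gene gce fell by 0.77 on the log2 scale (edgeR adjusted p 0.00359) in a region with antisense genes, whereas its paralog Met was not called (log2 fold change 0.07, edgeR adjusted p 0.628). The 2 higher genes were chinmo, which marks early larval and young neuronal states (46.6 ± 9.68 against 107 ± 26.6 CPM, log2 fold change 1.20, edgeR adjusted p 0.00712), and ab (31.5 ± 3.07 against 65.8 ± 3.13 CPM, log2 fold change 1.06, edgeR adjusted p 0.00041). Eip93F, which specifies adult fates later in metamorphosis, was at 8.64 ± 2.47 and 6.33 ± 1.39 CPM (SD, n = 3) and was not called (edgeR adjusted p 0.211).

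**Figure D5:**
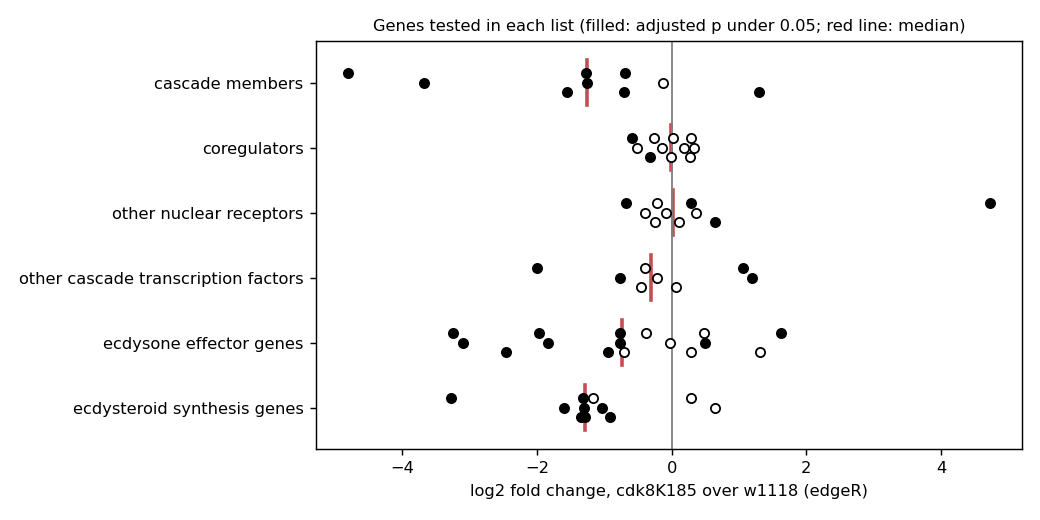
Log2 fold change of cdk8K185 over w1118 for each tested gene of the cascade and of the 5 other lists, filled where the adjusted p was under 0.05, with a red line at the median of each list. The medians are -1.26 for the cascade genes, -0.01 for the coregulators and 0.02 for the other nuclear receptors.

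The effector list held genes known to respond to the hormone or the cascade. Of 27 listed, 16 were tested, 8 were lower and 2 were higher, with a median log2 fold change of -0.74, where 17% of all genes tested were lower and 19.9% higher. With library totals as scaling 8 were lower and 5 higher, and without cdk8K185 replicate 2, 9 were lower and 4 higher. The largest falls were those of ImpE2 (log2 fold change -3.25, edgeR adjusted p 0.000728), an ecdysone-inducible imaginal disc gene, Fbp1 (-3.10, edgeR adjusted p 0.00108) and Eig71Ee (-2.46, edgeR adjusted p 0.00033). The controls had 494, 237 and 326 CPM of ImpE2, the mutants 26.7, 46.4 and 37.8 CPM. The order of its w1118 libraries was that of br and Hr4. The 2 higher genes were the cell death gene rpr (log2 fold change 1.63, edgeR adjusted p 0.00125) and the ecdysone importer gene Oatp74D (0.50, edgeR adjusted p 0.0331), whose call was lost in 5 of 14 refits. The other Eig71E genes did not pass the filter on low counts, and the highest of them, Eig71Eg, had 24, 4 and 11 counts in the controls and 0 in each mutant library.

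The last list held enzymes that make ecdysteroids, enzymes that break them down and regulators of the gland. Of 11 tested, 8 were lower and 0 higher, with a median log2 fold change of -1.28, where 17% of all genes tested were lower. The lower genes were the synthesis genes nvd, spok, sro, phtm, dib, sad and shd, and Eo. The call of nvd was lost in 8 of 14 refits and that of dib in 8 of the 13 that tested it, and dib passed the filter on low counts only through the w1118 libraries. The strongest fall was that of spok (log2 fold change -3.27, edgeR adjusted p 0.00025), which acts early in ecdysone synthesis in the ring gland. It was followed by sro (-1.59, edgeR adjusted p 0.000446), which acts in the same part of the pathway, and Eo (-1.34, edgeR adjusted p 0.00221), which encodes an ecdysone oxidase that turns the hormone over rather than making it. Beside these falls, the summed salivary gland glue markers dropped from a range of 28673 to 35087 CPM in w1118 to one of 1687 to 2641 CPM in cdk8K185, with 6 of 6 genes lower, against 17% of all genes tested. The 4 epidermal cuticle markers were all lower too (18631 to 27586 against 5468 to 9364 CPM). Of the 4 muscle markers 0 were called, and of the 5 imaginal disc markers nub was higher (log2 fold change 1.13). Of the 4 ring gland markers, the synthesis genes phtm and sad were lower, dib was lower by the call that was not firm, and Akh, which encodes the adipokinetic hormone, was not called, and their sum ran from 56.8 to 60.8 CPM in w1118 and from 23.0 to 30.4 CPM in cdk8K185. Among the rest, 2 of 6 fat body markers and 1 of 4 nervous system markers were lower, and 1 of 4 midgut markers was higher. Over all genes tested, 17% were lower and 19.9% higher. Called in either direction, these were 33.3%, 25% and 25% of their lists, under the 36.9% of all genes tested. Of these markers, Fbp1 is also on the effector list, and phtm, dib and sad are on the ecdysteroid list. Whether the marker differences reflect the amount of a tissue, and their part in the levels of the cascade genes, was not tested.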

How the data were processed

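Whole wandering larvae of w1118 and cdk8K185 were profiled by RNA-seq, with 3 libraries per genotype. The authors deposited raw, unnormalized counts per gene with 1 column per library. The submitters' processing notes name STAR, featureCounts, DESeq2 and the build dm6, while their roles, the gene annotation and whether strand was used are not given in the sources used here. Symbols, coordinates (1-based) and exon lengths came from the BDGP6.54 annotation, which has dm6 coordinates and matched 17477 of 17562 rows.

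Genes passed filterByExpr (minimum count 10, minimum total 15), TMM factors scaled the libraries, and the genotypes were compared with the quasi-likelihood test of edgeR 4.0.16 in R 4.3.3 (two-sided), with Benjamini-Hochberg adjustment over all 10632 genes tested and a threshold of 0.05. The SE was obtained as the size of the log2 fold change over the root of the F statistic. CPM values use TMM-scaled library sizes, and log2 CPM values a prior count of 2. The test was checked on simulated counts with 200 changed genes, 10792 genes tested and the same dispersion for every gene. It recovered 73.9% of the changes, and 2.8% of its calls were false. The real libraries have far more calls and an uneven spread, so these rates need not hold for them. Levels were compared between genes per kb of merged exons. Counts alone and counts per kb of exon free of other genes were given as alternatives.

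Members and lists were chosen with earlier results of these data known. Named genes are the 10 members, Cdk8, the genes of the lists past the threshold (the 3 largest changes in each direction where over 6 were), and the 3 genes most like Hr4 and ftz-f1. Some genes were named after their values were seen. These are further list genes not called, the markers nub and roX, Edg84A, Edg78E, Edg91, Eig71Eg and the remaining ecdysteroid genes called. Alternatives were DESeq2 1.42.0, limma-voom (limma 3.58.1), RLE factors, library totals, filters of at least 1 count in some library and of at least 10 in all 6 libraries, a block for replicate number, and fits that each dropped 1 library. Together these make 14 refits with the roX1 term. The roX1 term and the exon length free of other genes were added after seeing the data. No pair of libraries in a genotype agreed within sampling noise (chi-square per degree of freedom 18.7 to 47.1).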

Additional observations from a re-analysis of the deposited data

How the results depend on the processing

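Over all 14 refits, EcR, br, Eip74EF, Eip75B, Eip78C, Hr4 and ftz-f1 kept their direction and their call, and usp was never called. Hr39 lost its call in 7 of them: with library totals, with the roX1 term, and in 5 of the 6 fits that dropped a library (the exception was w1118 replicate 2). The number of cascade genes called was 7 or 8 throughout. The count of coregulators called fell from 2 to 1 with the roX1 term and ran from 1 to 3 when single libraries were dropped. The other nuclear receptors gave 2 calls with at least 10 counts in every library, where Hr51 does not pass the filter and Hnf4 lost its call. Without division by exon length, 2 genes kept a single rank in all 6 libraries, br at rank 1 and Hr3 at rank 10. By that measure usp was at rank 5 in each mutant library and did not pass br. Per kb of exon 1 gene kept a single rank, and per kb of exon free of other genes 0 did. By the latter, Hr3 passed above Hr4 in cdk8K185 replicates 2 and 3. It also put usp above br in replicate 3 and br above EcR in replicate 2. Over all genes, library totals gave 3452 higher and 1203 lower calls, against 2114 and 1805 with TMM, RLE factors 1923 and 1976, DESeq2 1800 and 2140, and the replicate block 1906 and 2082.

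The labels number the replicates without saying whether libraries of the same number were paired. The correlation of same-numbered deviations was -0.195, 0.508 and 0.562 for replicates 1 to 3. Between libraries of different number it ran from -0.606 to 0.265. Because deviations were taken within groups of 3 libraries, these values cannot decide whether the samples were paired. With a replicate block, 8 cascade genes were called, as without it. The fold of Hr4 moved most without w1118 replicate 1 among the fits that dropped a library, by 1.6 times, and by up to 1.24 times without a mutant library. Hr3 had at most 10 counts in any library, and the part of shared exon bases in this was not tested.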
